A study of Lactuca sativa with 12 samples.

Results

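The gene Lsat_1_v5_gn_3_76921.1, described as Cold-shock protein CS120, was followed in ‘Salinas’ lettuce (Lactuca sativa) during cold acclimation. It is 1 of the 23933 genes of the expression table and lies on chromosome 3, as the number 3 after the letters gn in its ID states. It was chosen by its measured change in these same libraries, so its levels and fold changes are given as a description, with no test. RNA-seq of above-ground tissue was carried out on 3 replicates at each of 4 time-points, 12 libraries in all. The plants exposed to cold were 18 days old at the start and were kept at 4 °C under 100 µmol m−2 s−1 of light for 4 h, 24 h or 7 d. The 0 h plants, also 18 days old, were warm-grown at 20 °C under 350 to 400 µmol m−2 s−1. The photoperiod was 16 h for all plants. Temperature and light intensity changed together, and the plants sampled at 7 d were also older than the others, so the shares of these in any difference from 0 h cannot be told apart. The time of day of sampling is not given in the sources used here. Warm-grown plants were sampled at 0 h only, so its share cannot be told apart either.

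Dehydrins are a class of late embryogenesis abundant (LEA) proteins. They are hydrophilic and largely unfolded, they carry a lysine-rich segment, and they bind membranes and other proteins when cells lose water. Plants accumulate them in drying seeds and, in many species, in leaves under cold, drought or abscisic acid. The name CS120 comes from wheat, where the protein is a cold-induced dehydrin used as a marker of cold acclimation. In Arabidopsis, dehydrin genes such as COR47 belong to the cold-regulated (COR) genes, whose promoters are bound by the CBF/DREB1 transcription factors, while Rab18 is known for its response to abscisic acid.

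Transcript levels are in CPM, the reads of a gene per 1000000 reads counted over all genes of a library. The libraries held 18609189 to 25952306 counted reads. The aerial tissue label was set against 8 genes of Rubisco small chains and chlorophyll a-b binding proteins, all of which were detected in every library. Their summed level lay between 38552 and 41129 CPM in the 0 h libraries. It was 36229 to 37475 CPM after 4 h of cold, 25503 to 29039 CPM after 24 h, and 11153 to 11504 CPM by 7 d, where it was lowest. By the limma call described below, all 8 were lower at 7 d, against 3.41% of all genes tested. These genes were named from descriptions in the study's supplement, which lists its cold-regulated genes. A gene of these kinds that did not change could not be listed, so the list favours a change in the sum. The part of this summed level in the CS120 values was not tested. In bulk tissue, a change in the share of one cell type and a change in RNA per cell cannot be told apart. Replicate correlations of log2(CPM + 1) were 0.990 to 0.995 in 10 pairs and 0.977 to 0.979 in the 2 pairs with the third 0 h library. That library had a CS120 level of 0.952 CPM, between those of its replicates.

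The CS120 gene had a low level in warm-grown plants and a higher one in every library after 4 h of cold. Its mean was 1092 times the 0 h mean after 24 h, and by 7 d it stood at 17.5% of the 24 h mean. At 0 h its level was 0.974, 0.841 and 0.952 CPM in the 3 libraries. At 4 h it was 13.9, 14.2 and 14.6 CPM. At 24 h it was 959, 1025 and 1037 CPM. The 0 h libraries differed little from each other, and every 24 h library was far above every 4 h library. At 7 d the level was 161, 172 and 195 CPM. The levels therefore ran in the order 0 h, 4 h, 7 d, 24 h, and no library of one time-point overlapped with a library of another.

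**Figure D1:**
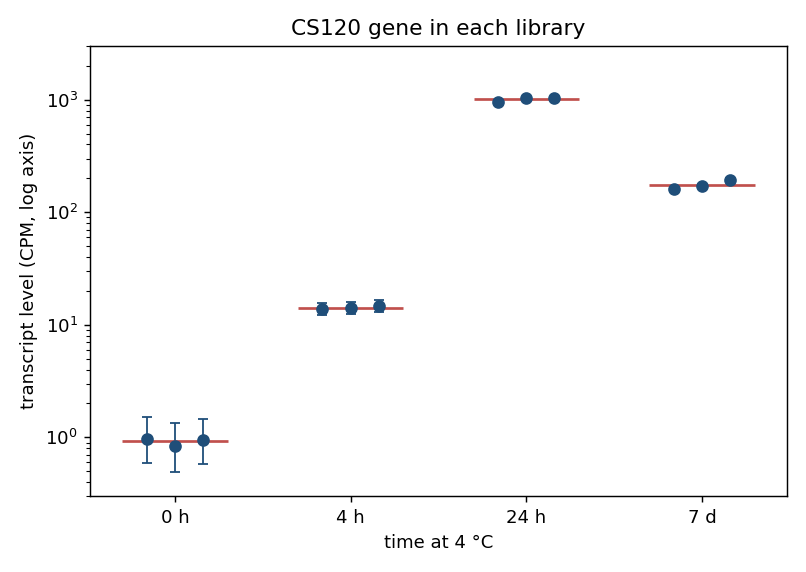
Transcript level of the CS120 gene in CPM, on a log axis, in each of the 3 libraries of the 4 time-points at 4 °C. Points are libraries, error bars are exact Poisson 95% intervals that cover counting error only, and horizontal lines are means, at 0.923, 14.2, 1007 and 176 CPM. The 4 time-points do not overlap.

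The mean level of 0.923 ± 0.0711 CPM in warm-grown plants compares with 14.2 ± 0.345 CPM after 4 h, 1007 ± 41.8 CPM after 24 h, and 176 ± 17.1 CPM after 7 d of cold (SD, n = 3 each). The replicates lay close together, and their coefficients of variation were 7.71%, 2.42%, 4.15% and 9.75% in the order of the time-points. At 0 h the gene rested on 17 to 20 reads a library, for which counting alone gives a coefficient of variation of 23.1%. The exact Poisson 95% intervals of its 3 libraries there, 0.587 to 1.52, 0.490 to 1.35 and 0.581 to 1.47 CPM, overlapped widely. The 4 h libraries held 264 to 272 reads of it, those of 24 h held 18589 to 21889, and those of 7 d held 3010 to 4467. At 24 h about 0.101% of all counted reads belonged to this gene. The intervals cover counting error only, and the baseline is the least precise of the 4 levels.

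On the log2(CPM + 1) scale, the fold change with 0 h was 2.99 after 4 h, 9.03 after 24 h, and 6.52 after 7 d (standard error 0.0953 each, n = 3 each). As ratios of mean CPM, the CS120 level was 15.4 times the 0 h level at 4 h, with 14.3 to 17.4 times over the pairs of single libraries. At 24 h the ratio was 1092 times, ranging from 985 to 1232 times, and at 7 d it was 191 times, ranging from 165 to 231 times. The added 1 CPM is about as large as the whole 0 h level, so the log2 fold changes understate the ratios of CPM.

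Most of the difference between 24 h and 0 h came after the first 4 h. The 4 h mean was 1.41% of the 24 h mean, and the 24 h level was 70.7 times the 4 h level, with 65.6 to 74.4 times over the pairs of libraries (log2 fold change 6.05). The level at 7 d was lower than at 24 h, with a log2 fold change of −2.51 for 7 d over 24 h. The 7 d libraries kept 15.5% to 20.3% of the level of single 24 h libraries. They were still 12.3 times as high as the 4 h libraries, with a log2 fold change of 3.53.

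The place of CS120 among other genes was read from log2 fold changes of the 19692 tested genes averaging 1 CPM or more. Its increase ranked 64th after 4 h, 1st after 24 h, and 3rd after 7 d. Because the gene was chosen for this change, its ranks describe the choice and carry no test. The 2 genes above it at 7 d were Lsat_1_v5_gn_4_84040.2 and Lsat_1_v5_gn_0_6400.1. For the change between 4 h and 24 h it ranked 4th by increase. For the change between 24 h and 7 d it had the 24th largest decrease.

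Among the other 1335 genes that passed the call for an increase at 24 h, the median log2 fold change of 7 d over 24 h was −0.64, against −2.51 for CS120. To be called, a gene needed a log2 fold change of 1 or more in size with an adjusted p no higher than 0.01, from limma with Benjamini-Hochberg adjustment over all 22306 genes tested. Of these 1335 genes, 370 fell between 24 h and 7 d by the same call, a call made for 2.52% of all genes tested. A fold change as low as that of CS120 or lower was found for 19 of the 1335. From 4 h to 24 h, the median of the 1335 genes was 0.74, against 6.05 for CS120, and 3 of them had an increase as large or larger. CS120 therefore stood near the end of these genes both in its fold change from 4 h to 24 h and in that from 24 h to 7 d. The 1335 genes were picked for a high 24 h level, which favours a rise before it and a fall after it. CS120 was itself picked for its change, so its place among them is a description with no test.

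Of the other genes, 4 were listed as dehydrins by their descriptions, all with the chromosome number 3 in their IDs. After 4 h an increase was called for 2 of the 4, against 5.15% of all genes tested. After 24 h it was called for 3 of the 4, against 5.99%, and after 7 d for all 4, against 6.81%. The median log2 fold changes of the 4 genes at these time-points were 0.94, 4.38 and 3.35, against medians of 0.03, 0.04 and 0.15 over all genes tested. None of the 4 was called as lower at any of these time-points, a call made for 0.592%, 3.55% and 3.41% of all genes in the order of the time-points. The list was put together with these changes known. Gene descriptions came from the study's supplement, which lists its cold-regulated genes, so a dehydrin without a description there could not be listed. The counts are therefore a description of these 4 genes, and setting them against the shares of all genes is no test.

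A second gene described as CS120, Lsat_1_v5_gn_3_77021.1, peaked at 24 h as the first did. By Pearson's r of log2(CPM + 1) over the 12 libraries it was more like the first than Rab18 was, with 0.9897 against 0.9746. By the distance between the 3 log2 fold changes with 0 h Rab18 was nearer, with 2.27 against 4.01 for the second CS120 gene. Its level was 84.2, 124 and 106 CPM at 24 h, against 0.615, 0.0495 and 0.904 CPM at 0 h. At 4 h it was 3.96, 1.97 and 4.19 CPM, and at 7 d 22.9, 26.7 and 26.5 CPM. No time-points overlapped, with the order 0 h, 4 h, 7 d, 24 h found for the first gene. The log2 fold change with 0 h was 1.52 after 4 h, 6.14 after 24 h, and 4.16 after 7 d (standard error 0.243 each), with limma adjusted p-values of 0.000565, 1.4e-09 and 1.27e-07. The second 0 h library held a single read of this gene, and its 0 h level is therefore poorly known. At 7 d it kept 24.2% of its 24 h level, against 17.5% for the first CS120 gene.

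Read counts of the 2 CS120 genes within a library shifted against each other over time. The second gene had 63.2%, 5.88% and 95% as many reads as the first at 0 h, on at most 19 reads a library. At 4 h the share was 28.4%, 13.9% and 28.7%. At 24 h it was 8.78%, 12.1% and 10.3%. The share at 24 h was below every 4 h value, so the ratio of 24 h to 4 h was larger for the first gene in all 9 pairs of libraries. At 7 d the share was 14.3%, 15.5% and 13.6%, above every 24 h value, and the second gene kept more of its 24 h level than the first. How reads matching more than 1 gene were counted is not given in the sources used here, so the division of reads between 2 genes of one description is uncertain. Summed over both genes, the level was 1044, 1149 and 1143 CPM at 24 h, against 1.59, 0.891 and 1.86 CPM at 0 h.

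The dehydrin Rab18 gene (Lsat_1_v5_gn_3_74801.1) increased late and strongly. Its level was 252, 316 and 319 CPM at 24 h, against 0.256, 0.594 and 0.476 CPM at 0 h. At 4 h it was 2.22, 2.56 and 2.04 CPM, and at 7 d 74.9, 132 and 134 CPM. The time-points did not overlap. Its log2 fold change with 0 h was 1.19 after 4 h, 7.68 after 24 h, and 6.27 after 7 d (standard error 0.197 each), with limma adjusted p-values of 0.000772, 3.23e-11 and 5.25e-10. At 7 d it kept 38.4% of its 24 h level, a larger share than the 17.5% of CS120.

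Dehydrin COR47 (Lsat_1_v5_gn_3_74761.1) showed a plateau in place of a peak. Its level was 4.28, 7.04 and 6.02 CPM at 24 h and 3.69, 5.05 and 8.38 CPM at 7 d, against 0.205, 0 and 0.0952 CPM at 0 h. At 4 h it was 0.0528, 0.107 and 0.215 CPM, overlapping with the 0 h libraries. The 7 d mean was 98.7% of the 24 h mean, and the libraries of these time-points overlapped. The log2 fold change with 0 h was 2.61 at 24 h and 2.55 at 7 d (standard error 0.218 each), with limma adjusted p-values of 1.39e-06 and 2.1e-06. At 0 h and 4 h the gene had 0 to 4 reads a library, and at 4 h the log2 fold change was 0.03 (limma adjusted p = 0.94).

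Dehydrin Xero 1 (Lsat_1_v5_gn_3_75820.1) moved least and had no peak at 24 h. Its level was 9.34, 10.98 and 9.66 CPM at 24 h and 12.6, 14.6 and 12.8 CPM at 7 d, against 3.90, 4.45 and 5.19 CPM at 0 h. At 4 h it was 7.71, 9.54 and 6.66 CPM, above all 0 h libraries and overlapping with those of 24 h. Its 7 d mean was 133% of its 24 h mean. At 7 d the log2 fold change with 0 h was 1.38 (standard error 0.133, limma adjusted p = 5.64e-06). At 24 h it was 0.9997, just under the fold needed for a call. All 5 listed dehydrins were thus higher at 7 d than at 0 h, but they differed in whether the 24 h level was kept.

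**Figure D2:**
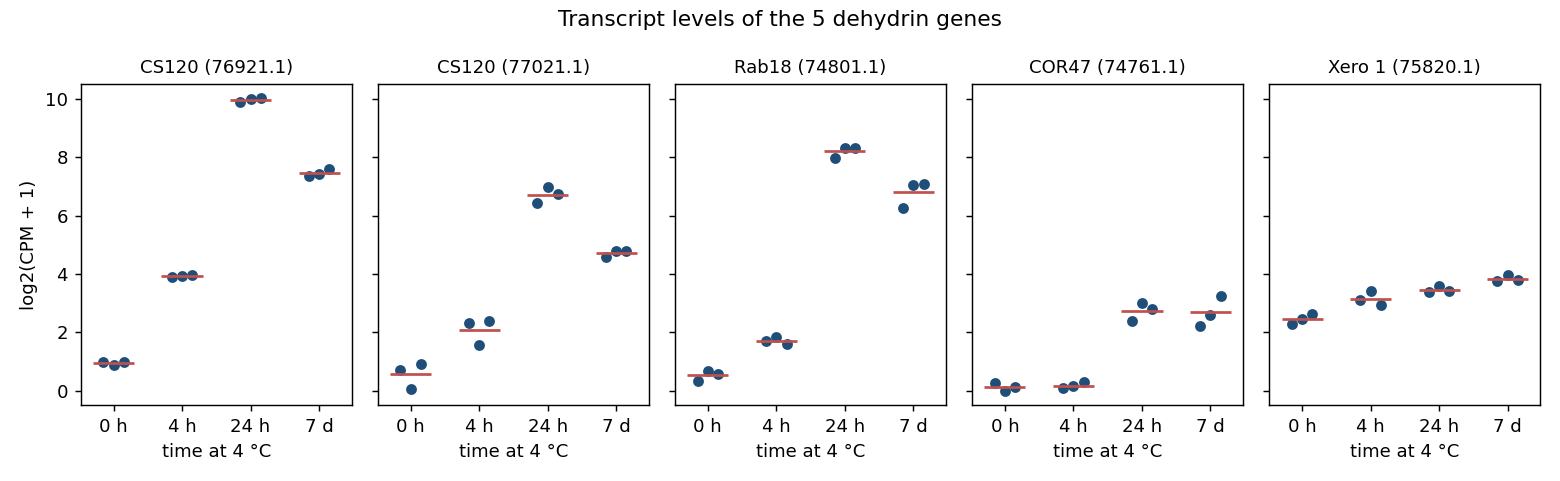
Levels of the 5 listed dehydrin genes as log2(CPM + 1) in each library, with 1 panel a gene and the time at 4 °C on the horizontal axis. Points are libraries (n = 3 a time-point) and lines are means. Both CS120 genes and Rab18 peak at 24 h, COR47 holds its 24 h level to 7 d, and Xero 1 is highest at 7 d. Levels are not corrected for gene length, so only the course within a panel can be read.

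The differences between time-points are also given for these 4 genes. The list was put together with the changes known, so these counts too are a description and no test. From 4 h to 24 h, 3 of the 4 rose by the same call, against 2.50% of all genes tested. The log2 fold change of 24 h over 4 h was 4.62 for the second CS120 gene, 6.50 for Rab18 and 2.57 for COR47, against 6.05 for the first CS120 gene. From 24 h to 7 d, 2 of the 4 fell, the second CS120 gene and Rab18, against 2.52% of all genes. Their log2 fold changes of 7 d over 24 h were −1.99 and −1.41.

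The list of other LEA and cold shock proteins held 4 genes. The pair described as LEA protein ECP63, Lsat_1_v5_gn_2_23920.1 and Lsat_1_v5_gn_2_24040.2, peaked at 24 h as CS120 did. The first averaged 1048 CPM at 24 h, against 18.2 CPM at 0 h, with a log2 fold change of 5.80. The second averaged 1915 CPM at 24 h, against 23.9 CPM at 0 h, with a log2 fold change of 6.27. They were called at all 3 cold time-points and kept 47.2% and 48.8% of the 24 h level at 7 d, where CS120 kept 17.5%. The gene for Cold shock protein 1 (Lsat_1_v5_gn_0_39260.1), a name given to small nucleic acid-binding proteins unrelated to dehydrins, was called at 24 h and 7 d with log2 fold changes of 1.14 and 1.30. The Lea14 homolog (Lsat_1_v5_gn_1_82580.3) passed no call, with log2 fold changes of −0.20 at 24 h and −0.92 at 7 d, but with TMM scaling it was called lower at 7 d.

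The LsCBF genes, lettuce members of the transcription factor family that binds COR gene promoters in Arabidopsis, peaked before CS120. Of the 14 LsCBF genes listed, 11 were in the table and 10 were tested. After 4 h an increase was called for 8 of the 10, against 5.15% of all genes tested, after 24 h for 6, against 5.99%, and after 7 d for 5, against 6.81%. From 4 h to 24 h, 6 of the 10 fell, against 3.93% of all genes tested, while the CS120 level at 24 h was 70.7 times that at 4 h. The summed level of the 11 genes was 14.3 to 20.7 CPM in warm-grown plants and 322 to 327 CPM after 4 h of cold. It was then 112 to 164 CPM after 24 h, and 91.7 to 106.9 CPM after 7 d. The largest parts of the 7 d sum were LsCBF14, with a mean of 51.1 CPM, and LsCBF7, with 23.1 CPM. For LsCBF7 the study reports a nonsense mutation that truncates the protein. LsCBF12 and LsCBF10 averaged 47.4 and 37.3 CPM at 4 h, against 2.00 and 1.78 CPM at 7 d. The highest mean was at 4 h for 10 of the 11, and LsCBF14 was highest at 7 d. At the 4 h peak of the LsCBF genes, CS120 was at 1.41% of its own peak.

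**Figure D3:**
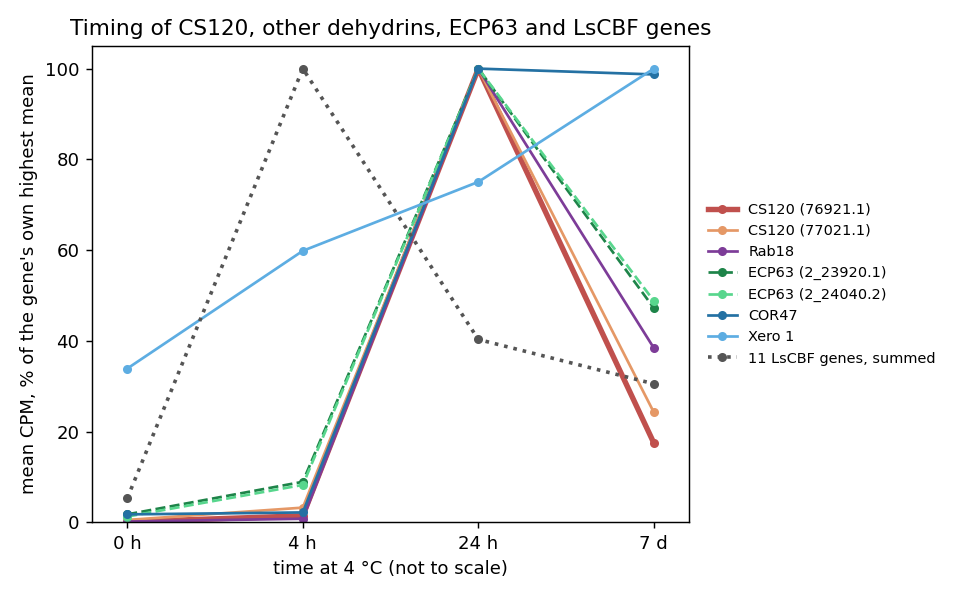
Mean CPM at each time-point as a percentage of the gene's own highest mean, for both CS120 genes, Rab18, COR47, Xero 1, the 2 ECP63 genes and the sum of 11 LsCBF genes (n = 3 libraries a time-point, time axis not to scale). The LsCBF sum is highest at 4 h, where CS120 is at 1.41%. At 7 d CS120 is at 17.5% of its peak, the lowest of the lines drawn, and COR47 is at 98.7%. Single LsCBF genes are not drawn, and LsCBF14 and LsCBF7 make the largest parts of their sum at 7 d. These 2 genes keep a larger share of their own highest mean at 7 d than CS120 does. LsCBF10, LsCBF11 and LsCBF12 each keep a smaller share than CS120.

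Genes of abscisic acid metabolism and response moved in both directions. Of 8 genes listed, 1 was called higher after 4 h, 4 after 24 h, and 2 after 7 d, while 2 were called lower after 24 h and 2 after 7 d. Over all genes tested, 5.15%, 5.99% and 6.81% were called higher in the order of the time-points, and 3.55% and 3.41% were called lower after 24 h and 7 d. With TMM scaling none was higher and 3 were lower at 7 d. Higher at 24 h were Xanthoxin dehydrogenase (Lsat_1_v5_gn_2_105900.1), an enzyme of abscisic acid synthesis, with a log2 fold change of 1.80, the receptor gene PYL8 with 1.16, and both genes described as ABSCISIC ACID-INSENSITIVE 5-like protein 5, with 1.74 and 1.78. Lower at 24 h were the receptor genes PYL1 and PYL6, with −1.27 and −2.12. Abscisic acid 8-hydroxylase 1 (Lsat_1_v5_gn_3_20400.1), which degrades the hormone, averaged 172 CPM at 4 h, against 21.1 CPM at 0 h. At 24 h, when CS120 peaked, it averaged 39.6 CPM, with all libraries above those of 0 h. It was not called there, with a log2 fold change of 0.88 (limma adjusted p = 0.0112).

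The cryoprotectant list held 6 genes of sugar and proline metabolism, not all of which make a cryoprotectant. Of the 6, 4 were called higher after 4 h, 4 after 24 h, and 2 after 7 d, and none lower. Under TMM scaling 3 in place of 4 were higher at 4 h. The share of all genes tested that was called higher was 5.15%, 5.99% and 6.81%, and that called lower 0.592%, 3.55% and 3.41%, in the order of the time-points. Delta-1-pyrroline-5-carboxylate synthase (Lsat_1_v5_gn_2_117820.3), which makes proline, averaged 197 CPM at 24 h, against 70.6 CPM at 0 h, with a log2 fold change of 1.46 at 24 h and 0.01 at 4 h. Beta-amylase 3 (Lsat_1_v5_gn_3_15861.1), which breaks down starch, averaged 246 CPM at 4 h, against 8.84 CPM at 0 h, with a log2 fold change of 4.66 at 4 h. The proline synthesis gene thus had its highest mean at 24 h like CS120, and the amylase at 4 h like most LsCBF genes.

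The genes with the time course most like that of CS120 were ranked by Pearson's r of log2(CPM + 1) over the 12 libraries, which fall into 4 time-points. The r is a description, and the points of a time-point share its treatment. The highest r was 0.994, for Lsat_1_v5_gn_2_58761.1, described as a chloroplastic thioredoxin-like protein, which averaged 135 CPM at 24 h, against 0.118 CPM at 0 h. The next were a folate-biopterin transporter gene (Lsat_1_v5_gn_1_76041.1, r = 0.992), Lsat_1_v5_gn_7_1760.1, for which no description was used (r = 0.992), and Expansin-like A1 (Lsat_1_v5_gn_3_47800.1, r = 0.991). The ECP63 gene Lsat_1_v5_gn_2_23920.1 (r = 0.991) and the second CS120 gene (r = 0.990) were also among the first 10. The tenth gene had an r of 0.989 and the next one after it also 0.989, and 203 genes had an r over 0.95, so the order at the top is not sharp. Ranked by Spearman's rho, 1 of the first 10 was shared.

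Likeness of shape did not bring likeness of size. The first 10 genes had log2 fold changes at 24 h down to 1.32, for Lsat_1_v5_gn_6_55221.1, against 9.03 for CS120. By the distance between the 3 log2 fold changes with 0 h, the nearest gene was Lsat_1_v5_gn_9_111061.3, for which no description was used, with 2.73 after 4 h, 7.00 after 24 h, and 6.28 after 7 d. Rab18 was next, then Lsat_1_v5_gn_4_84040.2, the second ECP63 gene and the thioredoxin-like gene. After CS120, the largest log2 fold changes at 24 h were 8.51 for Lsat_1_v5_gn_4_84040.2, 7.68 for Rab18 and 7.00 for Lsat_1_v5_gn_9_111061.3. These were followed by 6.93 for the thioredoxin-like gene and 6.71 for a mannan endo-beta-mannosidase gene (Lsat_1_v5_gn_4_132740.2). At 7 d some of these stood apart from CS120. Lsat_1_v5_gn_4_84040.2 averaged 1544 CPM at 7 d and 952 CPM at 24 h, while the mannosidase gene averaged 1.49 CPM at 7 d and 112 CPM at 24 h.

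The IDs of the 5 listed dehydrins fall within a numbered stretch of chromosome 3, which holds 41 of the 2340 genes of that chromosome in the table. Of the 31 other genes tested in the stretch, 3 were called higher at 24 h, against 5.99% of all genes tested, and none lower, against 3.55%. The ID numbers give an order only, and no distance in bases was used. On the lower side of CS120, the 5 nearest genes had log2 fold changes at 24 h between −0.53 and 0.94. The highest of these was Zinc-finger homeodomain protein 6 (Lsat_1_v5_gn_3_76721.1), at 18.1 CPM at 4 h and 13.2 CPM at 24 h, against 6.44 CPM at 0 h. Between the 2 CS120 genes lie Lsat_1_v5_gn_3_76981.1 and Lsat_1_v5_gn_3_77001.1, both too low to be tested. They had at most 11 and 8 reads in a library, each highest at 24 h.

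**Figure D4:**
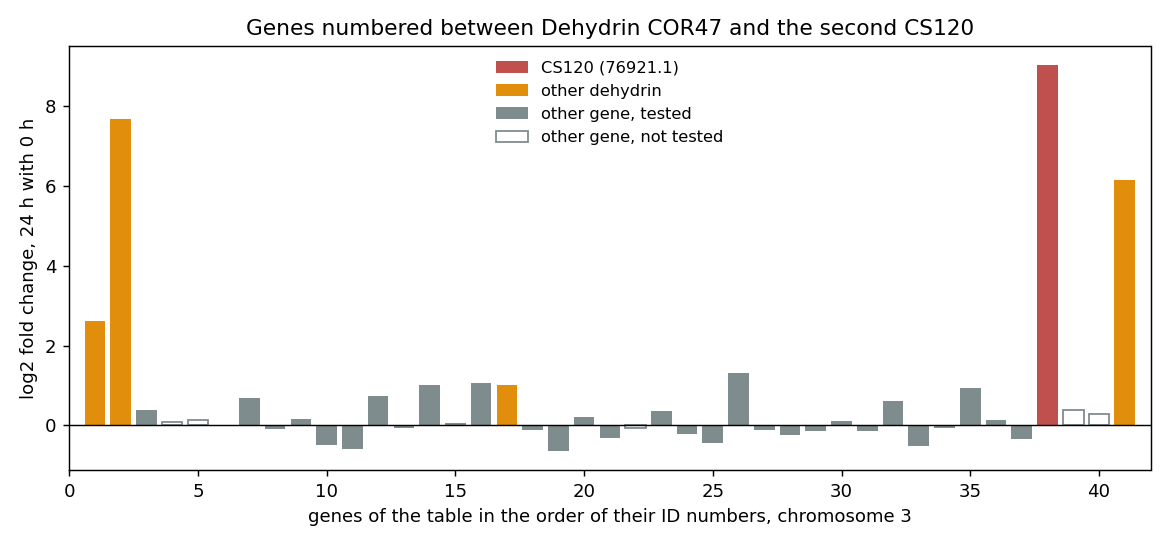
Log2 fold change of 24 h with 0 h, on the log2(CPM + 1) scale, for the 41 genes of the table with ID numbers between Dehydrin COR47 and the second CS120 gene on chromosome 3, in the order of those numbers. Bars are genes, coloured as the CS120 gene, the 4 other dehydrins, other tested genes and, unfilled, genes too low to test. CS120 reaches 9.03, Rab18 7.68 and the second CS120 gene 6.14, and no other gene exceeds 1.31 apart from COR47 at 2.61.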

How the data were processed

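The deposited values are CPM per gene and library. Per the study's methods, the authors mapped 150 bp paired-end reads to lettuce genome version 8 with STAR 2.5.2, counted them with featureCounts and used edgeR; strand and multi-mapping settings are not given in the sources used here. Every column summed to 1000000, and all values were whole multiples of 1 read within 0.01 read, so the reads behind each deposited CPM value were recovered.

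Tested were the 22306 genes that reached 0.5 CPM in 2 or more libraries (1627 left out), with limma 3.58.1 in R 4.3.3 on log2(CPM + 1) over all 12 libraries and 4 time-points, Benjamini-Hochberg adjusted per contrast. The test was also run on simulated counts with known increases at 24 h, which cannot show how well the calls hold in these data. CS120 entered the fit for its standard error only. The study's methods call the samples biological replicates, and p-values measure the spread between them. Named genes were the listed dehydrins, LEA, LsCBF, abscisic acid and cryoprotectant genes, the 10 most alike by Pearson's r, the 5 nearest by fold change, the next 5 at 24 h and the 5 nearest ID numbers on each side. The gene and the lists were chosen with earlier results of these data known. Gene descriptions came from the study's supplement, which lists its cold-regulated genes. A dehydrin, LEA, abscisic acid, cryoprotectant or aerial tissue marker gene with no description there could not be listed. The call counts of these lists are therefore no test. Alternatives were a pseudocount of 0.1, no filter, TMM and RLE scaling, only the 2 time-points compared, a replicate block, edgeR 4.0.16 and DESeq2 1.42.0 on recovered reads, an adjusted p of 0.05, Spearman's rho, and each library left out. None of the gene IDs matched the RefSeq table, so no sequence or gene length was used.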

Additional observations from a re-analysis of the deposited data

Results flagged for a closer look

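For 3 of the 4 other dehydrins, the effects at different cold time-points differed from each other by the limma test with Benjamini-Hochberg adjustment. The list of dehydrins was put together with these changes known, so the adjusted p-values are given as a description. The second CS120 gene (Lsat_1_v5_gn_3_77021.1) had a log2 fold change of 24 h over 4 h of 4.62 (adjusted p = 6.07e-08) and of 7 d over 24 h of −1.99 (adjusted p = 9.27e-05). For COR47 (Lsat_1_v5_gn_3_74761.1) the log2 fold change of 24 h over 4 h was 2.57 (adjusted p = 4.17e-06). For Rab18 (Lsat_1_v5_gn_3_74801.1) it was 6.50 for 24 h over 4 h (adjusted p = 4.55e-10) and −1.41 for 7 d over 24 h (adjusted p = 0.000227). Every library of one time-point lay on the same side of every library of the other in these 5 differences.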

How the results depend on the processing

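All log2 fold changes of CS120 kept their direction under the alternatives run. Leaving out each library in turn gave 2.96 to 3.01 at 4 h, 9.004 to 9.069 at 24 h, 6.45 to 6.58 at 7 d, 6.03 to 6.08 for 24 h over 4 h, −2.59 to −2.45 for 7 d over 24 h and 3.46 to 3.59 for 7 d over 4 h. With a pseudocount of 0.1, CS120 had 3.81 at 4 h, 9.95 at 24 h, 7.43 at 7 d and 6.13 for 24 h over 4 h. On recovered reads, edgeR and DESeq2 gave 3.89 each at 4 h, 10.04 and 10.03 at 24 h, 7.39 and 7.38 at 7 d, 6.15 and 6.14 for 24 h over 4 h, and −2.65 each for 7 d over 24 h. With TMM and RLE scaling, CS120 had 6.38 and 6.36 at 7 d, −2.64 and −2.65 for 7 d over 24 h, and 3.42 and 3.40 for 7 d over 4 h.

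The count of all genes called higher at 7 d was 1518, against 987 with TMM and 924 with RLE scaling, and higher genes made 66.6% of calls at 7 d, against 48.6% and 45.7%. The median of all genes at 7 d was 0.15 on CPM and 0.02 with TMM scaling. For the other dehydrins, 93 of 96 values kept their call. The exceptions were Xero 1 at 24 h, called with a pseudocount of 0.1 (1.14), edgeR (1.09) and DESeq2 (1.08), and also without the third 0 h library, the first 24 h library or the third 24 h library (1.02 to 1.09). Leaving out each library, COR47 at 4 h, with no call, had −0.033 to 0.10, with values below 0 without the second 0 h library (−0.033) and the third 4 h library (−0.023). Its value at 24 h, on 0 to 4 reads at 0 h, was 4.99 with a pseudocount of 0.1 and 5.74 with edgeR, against 2.61.

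Replicate numbers were not treated as pairs in the main test. Correlations of same-numbered deviations were −0.22 to 0.19, with 6 of 18 over 0.1. A library's highest correlation was with its own number in 19 of 36 comparisons, so pairing is not settled. The replicate block left the calls of the dehydrins as they were and CS120 at 9.03 at 24 h, with 1347 genes called higher at 24 h, against 1336. Of the 10 genes most like CS120, 1 was shared with Spearman's rho and 7 with a pseudocount of 0.1. Depth limits the 0 h level of CS120, at 17 to 20 reads a library, and hence each ratio over 0 h.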
